A study of Mus musculus with 8 samples.

Results

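Immediate early and stress transcription regulators are genes whose messages respond within minutes to hours to growth factors, calcium, glucocorticoids, contraction, injury or oxidants. Here they were taken as every gene on the array whose platform symbol begins with Jun, Fos, Nr4a, Cebp, Myc, Maf, Zfp36, Ddit, Cited or Hes1, or with Egr, Ier, Atf, Klf, Dusp or Btg and a digit, or is a numbered Id or Per gene. These stems found 60 of the 7053 named genes, and the probe of highest mean over the 8 arrays stood for each gene. The rule used names and brightness over all arrays, and no difference between genotypes, but it was set with earlier results of these data known. The stems also caught 8 genes that only share a stem with the regulators: Atf7ip, Btg1c, Ddit4l, Maf1, Mycbp2, Zfp362, Zfp365 and Zfp367. No Nr4a gene was among the members, and the Myc stem caught Mycbp2 alone.

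In resting cells the factors that switch on immediate early genes, such as SRF with its Elk partners and CREB, are already bound or ready, and MAP kinases or calcium-dependent kinases activate them. The first products, among them FOS, JUN and EGR proteins, then drive later genes, while dual-specificity phosphatases and mRNA-destabilising proteins such as ZFP36 end the signal. A second arm runs through ATF4, ATF3 and CHOP and answers amino acid shortage, unfolded protein and mitochondrial stress. In muscle these genes are known to respond to exercise, denervation and handling of the tissue.

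Illumina arrays measured the EDL, the extensor digitorum longus of the mouse leg and a muscle of fast fibres, in 4 samples labelled sod-/-, described by the series as SOD1 knockouts, and 4 wild-type samples, all from mice aged 7 months. SOD1 is the copper-zinc superoxide dismutase of the cytosol, and the series concerns the transcriptional response of muscle to lasting oxidative stress. The labels used here name no treatment, strain or sex, nor do they say that each sample is its own animal, so every p-value rests on sample-to-sample spread that may be technical. Sod1 itself was not analysed here, which leaves the genotype labels without that check. Fast muscle markers were present in every array (11 of 12 listed markers measured, their summed linear intensity 150400 to 157500 in the knockout and 140100 to 148700 in the wild type). Over the 4698 tested probes, as a description, Pearson correlations of whole arrays lay between 0.911 and 0.969 inside the knockout group, 0.906 and 0.968 inside the wild-type group, and 0.863 and 0.97 across genotypes.

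The promoters of 4 members are shown because Ier3 had the smallest unadjusted p of the 41 tested members, and Cebpb, Mafg and Maff shared an order over the arrays that is described further on. Each runs from 250 bases before to 50 bases after the RefSeq transcription start on build GRCm38.p6. Capitals mark the GC box GGGCGG in Ier3 and the CRE core TGACG in Cebpb. In Mafg they mark the CRE core and the E-box CACGTG, and in Maff the full CRE TGACGTCA. What is called the CRE core here is the first part of the full CRE, the CREB and ATF binding element. Motifs were marked on either strand, so that a CRE core on the opposite strand reads CGTCA.
Ier3 promoter, GRCm38.p6, chr17:35821463-35821762, plus strand: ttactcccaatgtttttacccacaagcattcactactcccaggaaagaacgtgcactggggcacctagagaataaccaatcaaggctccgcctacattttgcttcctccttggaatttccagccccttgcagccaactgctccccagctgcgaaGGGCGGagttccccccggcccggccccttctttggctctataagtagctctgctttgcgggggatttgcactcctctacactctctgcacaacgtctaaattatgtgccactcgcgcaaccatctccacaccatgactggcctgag
Cebpb promoter, GRCm38.p6, chr2:167688665-167688964, plus strand: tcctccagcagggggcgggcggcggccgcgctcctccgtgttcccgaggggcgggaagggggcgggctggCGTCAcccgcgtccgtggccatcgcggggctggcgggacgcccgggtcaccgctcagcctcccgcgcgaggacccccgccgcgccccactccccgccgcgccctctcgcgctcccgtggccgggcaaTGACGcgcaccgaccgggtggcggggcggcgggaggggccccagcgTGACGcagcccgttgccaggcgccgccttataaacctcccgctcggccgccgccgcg
Mafg promoter, GRCm38.p6, chr11:120633498-120633797, minus strand: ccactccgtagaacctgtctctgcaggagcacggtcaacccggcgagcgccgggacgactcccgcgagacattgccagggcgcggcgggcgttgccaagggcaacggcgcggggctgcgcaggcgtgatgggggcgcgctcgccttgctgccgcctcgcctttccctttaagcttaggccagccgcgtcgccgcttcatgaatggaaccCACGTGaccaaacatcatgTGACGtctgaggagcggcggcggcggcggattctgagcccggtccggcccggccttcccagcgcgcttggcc
Maff promoter, GRCm38.p6, chr15:79347270-79347569, plus strand: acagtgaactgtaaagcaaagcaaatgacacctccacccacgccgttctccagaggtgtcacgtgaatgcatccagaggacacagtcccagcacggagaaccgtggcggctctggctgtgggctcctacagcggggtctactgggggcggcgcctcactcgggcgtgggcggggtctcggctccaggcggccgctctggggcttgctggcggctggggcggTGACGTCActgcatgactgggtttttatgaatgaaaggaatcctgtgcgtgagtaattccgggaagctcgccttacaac
Maff has 3 start sites in that table, and the window with the full CRE is printed.

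Of the 60 members, 46 had a window of this length in the RefSeq table, and motifs were searched on both strands. The CRE core was in the windows of 22 members (47.8%), against 36.7% of the 5794 array genes with a window and 23% of all 27025 genes in the table. The full CRE, which contains the CRE core, was in 4 members (8.7%), Dusp1, Dusp8, Maff and Zfp367, against 3.83% of array genes and 2.03% of all genes. The E-box was in 10 members (21.7%), against 12.3% and 8.09%, and the GC box in 33 (71.7%), against 68.3% and 38.2%. TGANTCA, the AP-1 element, was in Ddit3, Dusp13, Klf9 and Zfp36l1 (8.7% of members, against 6.21% of array genes and 8.97% of all). The CArG box of SRF was in Zfp36 alone (2.17% against 1.78% and 1.81%). In the Cebpb window the CRE core began at -180, -53 and -7 from the start site. The CRE core of Mafg began at -22, and the CRE of Maff at -29. A match says only that the letters are present, and the array data hold no binding measurement.

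The values are the authors' deposited log2 intensities, and each difference is the knockout mean minus the wild-type mean on that log2 scale. To be tested, a probe had to lie above the array median of 6.93 in 4 or more of the 8 arrays, counted without regard to genotype. By this filter 41 of the 60 members were tested and 19 were dim. No member passed with limma and Benjamini-Hochberg adjustment over all 4698 tested probes at an adjusted p under 0.05, and over all probes 0 passed (0%). The smallest adjusted p of a tested member was 0.465, for Ier3. At an unadjusted p under 0.05 there were 2 members, Ier3 and Maf1 (4.88%), against 9.34% of all tested probes. Both were lower in the knockout, and in that direction alone the share was 4.88% of members against 4.6% of all tested probes. Among the tested members only Maf1 had no overlap between the genotypes (2.44%), against 4.6% of all tested probes. No tested member was higher in the knockout without overlap, against 1.87% of tested probes, and the 1 that was lower stood against 2.72%.

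The knockout mean lay below the wild-type mean in 30 of the 41 tested members (73.2%) and above it in 11, with a median difference of -0.18 against -0.03 over all tested probes, of which 54.1% were lower. With 1 array left out the members' median ran from -0.26 without wild-type array 1 to -0.11 without wild-type array 3. Tested marker genes of other cell types lay mostly on the same side. Of 13 tested markers of endothelium, fibroblasts, nerve, blood, smooth muscle, satellite cells and tendon, 12 had the lower mean in the knockout. The other 1, Scx of tendon, had the higher, and none passed. Pmp22 of Schwann cells had the largest difference of the lower ones (-0.86). Mbp, the other measured nerve marker, was dim and differed by -0.08. Of the fast muscle markers 9 of 11 had the higher mean and of the slow ones 3 of 5. The slow markers went both ways. Atp2a2, the slow calcium pump, differed by 1.09 (adjusted p 0.465). Myl3 differed by -1.17 (adjusted p 0.607) and Myl2, the other lower one, by -0.15. No macrophage or adipocyte marker was bright enough to be tested. Of the 4 measured macrophage markers 3 had the higher mean in the knockout, and the 1 measured adipocyte marker had the lower. The part of cell makeup in the members' values was not tested. With the 8 genes matched by stem only set aside, 26 of 36 tested members were lower and the median was -0.18. The share depended on which probes were bright enough: among the 19 dim members 15 had the higher mean in the knockout and 4 the lower. Over all 60 members 34 were lower and 26 higher, with a median of -0.09 against -0.02 over all 9232 probes. The split over all dim probes is not given here, so that of the dim members has no background beside it. For 26 of the 41 tested members the 95% interval of the difference stayed within a 2-fold change in either direction, and for 15 it did not. The bounds of these 41 intervals ran from -1.81 to 2.00 log2 units. Single arrays weighed heavily: leaving out 1 array moved the difference by over 1.5 times in 38 of the 41 tested members, the exceptions being Ier3, Maf1 and Mafg, and turned its sign in 15.

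**Figure D1:**
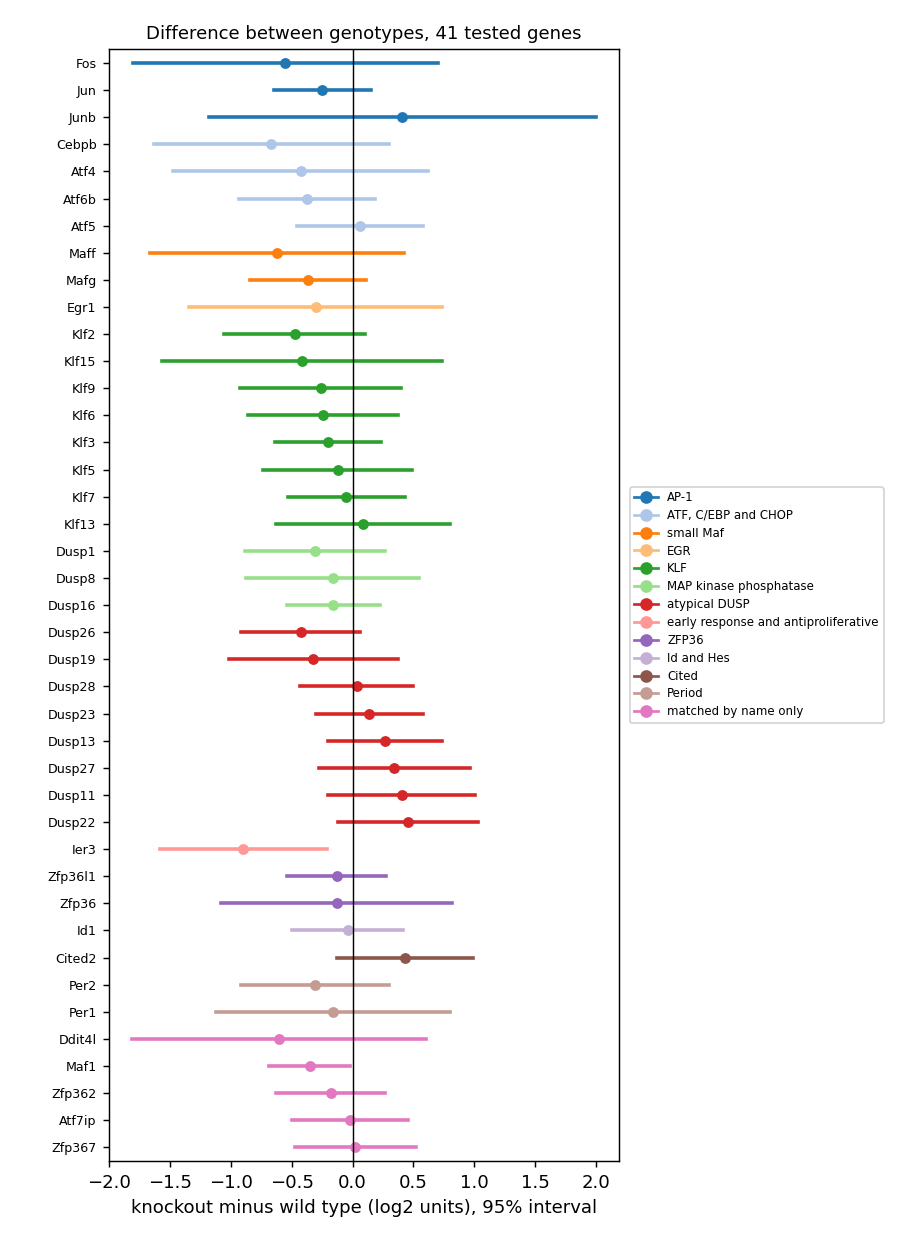
Difference between genotypes (horizontal axis, knockout minus wild type in log2 units) for the 41 tested members, coloured by role class; points are differences of means of 4 arrays against 4 and bars are limma's 95% intervals. Intervals of 2 members, Ier3 and Maf1, lie wholly below 0, and 30 of the 41 points lie below 0.

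Ier3 encodes a small early response protein induced by growth factors and NF-kappaB signalling that influences cell survival. Its log2 intensity was 7.64, 8.27, 7.37 and 8.60 in knockout arrays 1 to 4 and 8.33, 9.07, 9.29 and 8.77 in wild-type arrays 1 to 4. Knockout arrays 1, 2 and 3 lay below every wild-type array, and knockout array 4 lay between the lowest wild-type array and the others. The means were 7.97 ± 0.57 (SD, n = 4) and 8.86 ± 0.42, a difference of -0.90 (SE 0.30, 95% interval -1.58 to -0.21), with an unadjusted limma p of 0.0156 and an adjusted p of 0.465. The difference stayed between -1.11 and -0.70 when each array was left out in turn. Btg1, an antiproliferative gene in the same class, was dim in both genotypes, at 5.76 ± 0.43 against 5.10 ± 0.43, and was not tested.

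AP-1, the dimer of JUN and FOS proteins, is the classical product of the immediate early response, and of its 5 measured members 3 were tested and 0 passed. Jun stood at 8.11, 7.41, 8.01 and 8.08 in the knockout and 8.10, 8.16, 8.20 and 8.13 in the wild type. The wild-type arrays were tightly grouped (SD 0.04, n = 4), and the knockout mean was lower by a difference of -0.25 (adjusted p 0.672). Knockout array 2 was the lowest of all 8, and without it the difference was -0.09. Fos ran from 5.50 to 7.88 over the knockout arrays and from 6.56 to 8.40 over the wild-type arrays, a difference of -0.55 with an interval of -1.81 to 0.70. The Fos difference was -0.04 without knockout array 4 and -0.90 without wild-type array 2. Junb was the most scattered tested member, at 7.45, 6.00, 7.97 and 7.20 in the knockout and 5.09, 6.10, 7.09 and 8.71 in the wild type. Its lowest and its highest value both came from wild-type arrays, 1 and 4, and its difference was -0.14 without the former and 1.06 without the latter. Fosl2 and Jund, also AP-1 subunits, were dim, with differences of 0.18 and -0.03. Egr1, a zinc finger factor induced together with Fos, was 9.26, 9.75, 8.84 and 7.48 in the knockout and 9.09, 8.43, 9.23 and 9.78 in the wild type. Knockout array 4 held the lowest value of Egr1 and of Fos. The difference of Egr1 was -0.30 (interval -1.34 to 0.74) and turned to 0.15 without that array. Egr3 was dim, at 4.21 ± 0.36 against 4.43 ± 0.23.

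Of the 7 ATF, C/EBP and CHOP genes, bZIP factors of the stress responses, 4 were tested and 0 passed, with 3 of the 4 lower in the knockout mean. Cebpb, a factor of inflammation, metabolism and satellite cell control, was 11.62, 9.79, 10.18 and 10.95 in the knockout and 10.38, 11.37, 11.73 and 11.73 in the wild type. Both groups held high and low arrays and overlapped, and the difference was -0.67 (SE 0.43, adjusted p 0.643). It was -0.998 without knockout array 1 and -0.39 without knockout array 2. Atf4, the effector of the integrated stress response, was 9.17, 10.57, 8.19 and 8.73 in the knockout and 9.94, 9.23, 9.11 and 10.07 in the wild type. Knockout array 2 was the highest of all 8 arrays, while knockout arrays 3 and 4 were the lowest. The difference of Atf4 was -0.43 (adjusted p 0.801) and -0.89 without knockout array 2 (adjusted p 0.264), but -0.10 without knockout array 3. Atf6b, an endoplasmic reticulum membrane relative of ATF6, stood at 6.84, 7.36, 6.97 and 7.85 against 7.34, 8.03, 7.45 and 7.68, a difference of -0.37 with overlapping groups. Atf5, a factor of the mitochondrial stress response, differed by 0.06. Cebpd was dim and stood at 4.65 ± 0.54 against 4.63 ± 0.09.

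Atf3 and Ddit3, the gene of CHOP, both act downstream of ATF4 and were dim in most arrays, so neither was tested. Atf3 was 6.31, 10.46, 4.33 and 4.55 in the knockout and 6.39, 5.75, 4.21 and 6.96 in the wild type, a span of 6.13 between knockout arrays 2 and 3. In knockout array 2 Atf3 was far above every other array, and the remaining knockout arrays lay within the wild-type range. Ddit3 was 6.00, 7.89, 6.45 and 5.86 against 5.47, 6.28, 6.14 and 6.24, again highest in knockout array 2. Dusp10, a phosphatase of p38 and JNK that was also dim, was 3.77, 6.60, 5.87 and 3.90 against 5.15, 4.19, 4.65 and 4.11, with knockout arrays 2 and 3 above every wild-type array and knockout arrays 1 and 4 below every one.

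**Figure D2:**
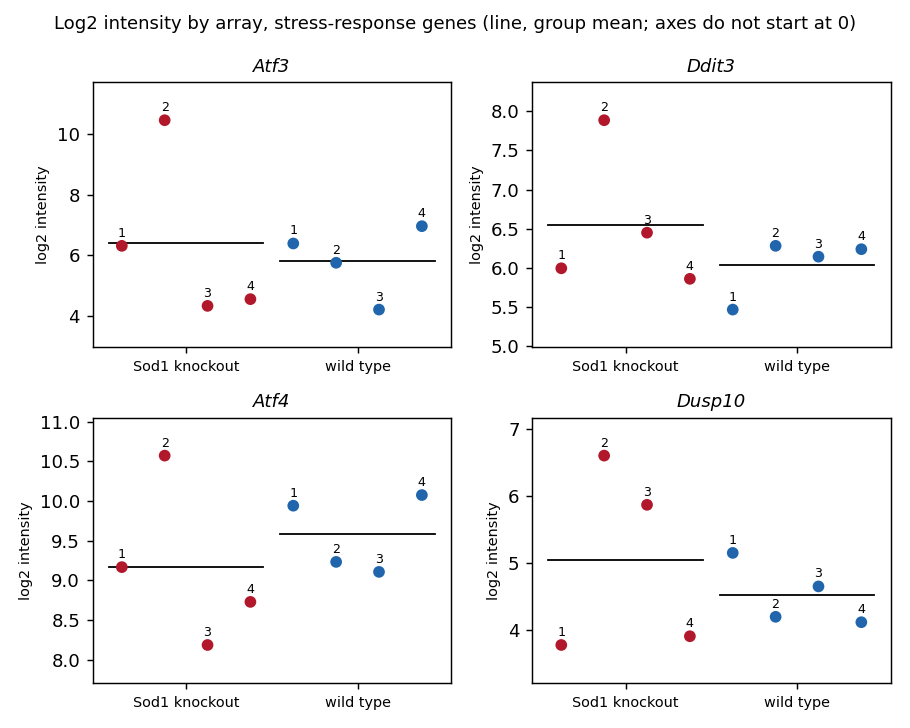
Log2 intensity by array (vertical axis) of Atf3, Ddit3, Atf4 and Dusp10, with 4 Sod1 knockout arrays in red, 4 wild-type arrays in blue, replicate numbers above the points and lines at group means. Knockout array 2 is the highest of the 8 arrays for all 4 genes, at 10.46, 7.89, 10.57 and 6.60. These 4 genes are shown outside the preset rule for giving values. Other ATF and C/EBP members differ: Cebpb and the dim Cebpd are lowest in knockout array 2, at 9.79 and 4.15. Atf5 and Atf6b are highest in wild-type array 2.

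The small Maf proteins MAFF and MAFG lack an activation domain and bind antioxidant response elements as partners of NRF2 and BACH factors. Both were tested and had the lower mean in the knockout, and neither passed. Mafg was 9.59, 9.26, 9.14 and 9.82 in knockout arrays 1 to 4 and 9.38, 9.82, 10.04 and 10.04 in wild-type arrays 1 to 4, a difference of -0.37 (SE 0.21, unadjusted p 0.115, adjusted p 0.605). Wild-type arrays 3 and 4 lay above every knockout array, wild-type array 2 was level with knockout array 4, and wild-type array 1 lay among the knockouts. Maff was 7.06, 5.35, 5.95 and 6.53 against 5.61, 7.39, 7.43 and 6.95. Its difference of -0.62 had an interval of -1.67 to 0.42, and in both genotypes the arrays spanned more than the difference. It was -1.03 without wild-type array 1, -0.33 without knockout array 2 and -0.15 without both arrays numbered 2.

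Among the KLF zinc finger factors 8 of 10 were tested, 7 had the lower mean in the knockout, and 0 passed, with a median difference of -0.22. Klf2, which is induced by blood flow in endothelial cells, was 7.24, 7.22, 7.69 and 7.95 in the knockout and 7.55, 8.62, 7.91 and 7.93 in the wild type. Knockout arrays 1 and 2 lay below every wild-type array, and the difference was -0.48 (SE 0.26, unadjusted p 0.097, adjusted p 0.583). Without wild-type array 2, the highest, it was -0.27, and without both arrays numbered 2 it was -0.17. Endothelial markers stood beside it: 0 of the 6 measured of 8 listed had the higher mean in the knockout, none passed, and their summed linear intensity was 1099 to 1582 in the knockout and 1256 to 1748 in the wild type. Their part in the Klf2 value was not tested either, and in whole muscle fewer cells of a type cannot be told apart from less RNA per cell. Klf9, a factor induced by glucocorticoids and thyroid hormone, was 12.56, 11.29, 11.65 and 12.12 against 11.69, 12.22, 12.65 and 12.10, a difference of -0.26 (adjusted p 0.803) within ranges that overlapped. The Klf9 difference was -0.06 without knockout array 2 and -0.48 without knockout array 1. Klf15, which controls amino acid and lipid use in muscle, differed by -0.42, Klf6 by -0.24, Klf3 by -0.20 and Klf5 by -0.12. Klf7 differed by -0.05 and Klf13 by 0.08. A second, dim probe of Klf6 differed by -0.59, in the direction of the first. Klf4 and Klf16 were dim, with differences of -0.52 and 0.23.

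Dual-specificity phosphatases comprise those that act on MAP kinases and the atypical ones. Of the 5 MAP kinase phosphatases 3 were tested and all 3 had the lower mean in the knockout, and 0 passed. Dusp1, an immediate early gene whose product dephosphorylates p38 and JNK, was 9.63, 10.65, 10.25 and 9.72 against 10.29, 10.78, 10.38 and 10.05. Knockout arrays 1 and 4 lay below every wild-type array and the other knockouts lay among them, with a difference of -0.31 (adjusted p 0.718). Dusp8 and Dusp16, phosphatases of JNK and p38, differed by -0.16 and -0.16. Dusp6, the feedback phosphatase of ERK, was 7.23, 6.68, 7.35 and 7.28 in the knockout and 6.81, 5.67, 6.16 and 6.01 in the wild type. Its knockout arrays lay above every wild-type array except knockout 2, which was below wild-type array 1. It exceeded the array median in 3 knockout arrays and no wild-type array and so was not tested. With every probe admitted to the fit it had the smallest p of the members, and its difference of 0.97 had an adjusted p of 0.279.

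Among the atypical phosphatases 6 of 8 tested members had the higher mean in the knockout, with a median difference of 0.20 and 0 past the threshold. Dusp26, which is known mainly from nerve and muscle-related tissues, was 10.85, 10.76, 10.81 and 11.26 in the knockout and 11.26, 11.79, 11.49 and 10.85 in the wild type, a difference of -0.43 (unadjusted p 0.0801, adjusted p 0.564). Wild-type arrays 1, 2 and 3 were at or above the highest knockout array, and wild-type array 4 lay among the knockouts. Dusp22, a phosphatase of JNK signalling, was 6.79, 7.07, 7.83 and 7.12 against 6.64, 6.34, 6.78 and 7.22, a difference of 0.46 (adjusted p 0.597) with overlap at wild-type array 4. Dusp11, an RNA 5′ phosphatase, was 7.79, 6.92, 7.61 and 8.07 against 7.03, 7.68, 6.83 and 7.23. It differed by 0.40 (adjusted p 0.647), and its second, dim probe by 0.03. Dusp13, which has a skeletal muscle form, was 10.04, 10.08, 9.49 and 9.92 against 9.62, 9.46, 9.31 and 10.08 and differed by 0.26. Dusp27, a protein without phosphatase activity that zebrafish muscle needs for its sarcomeres, was 8.18, 8.39, 7.18 and 7.57 against 7.34, 7.81, 7.17 and 7.63, a difference of 0.34. Its second, dim probe differed by 0.75. Dusp19, Dusp23 and Dusp28 differed by -0.32, 0.14 and 0.03, and a second tested probe of Dusp23 by 0.12. Dusp3, Dusp15 and Dusp18 were dim, with knockout means higher by 0.43, 0.53 and 0.95.

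**Figure D3:**
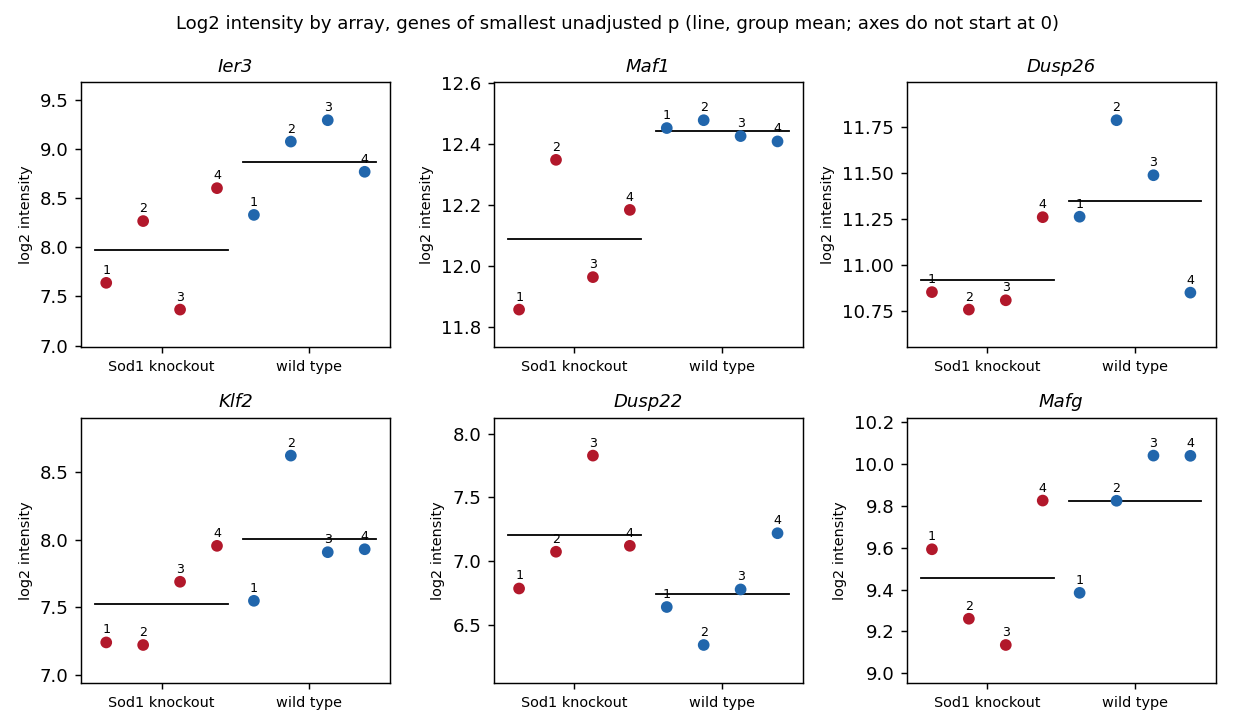
Log2 intensity by array (vertical axis) of the 6 members of smallest unadjusted p, Ier3, Maf1, Dusp26, Klf2, Dusp22 and Mafg, with 4 Sod1 knockout arrays in red, 4 wild-type arrays in blue, replicate numbers above the points and lines at group means. Only Maf1 has every knockout array, the highest at 12.35, below every wild-type array, the lowest at 12.41.

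Zfp36 and Zfp36l1 encode proteins that bind AU-rich elements and bring immediate early and cytokine mRNAs to decay. Zfp36l1 was 8.66, 8.23, 8.86 and 8.89 in the knockout and 8.62, 8.70, 8.86 and 8.97 in the wild type, a difference of -0.13, and Zfp36 differed by -0.13 with an interval of -1.08 to 0.82. The Id proteins hold back basic helix-loop-helix factors such as MyoD by taking their partners. Id1 was 7.20, 6.64, 6.80 and 7.19 against 6.59, 7.18, 6.95 and 7.27, a difference of -0.04. Id3 was dim, at 6.72, 6.56, 6.64 and 6.91 in the knockout and 6.03, 6.54, 5.89 and 6.45 in the wild type. Its lowest knockout array lay just above its highest wild-type array, by less than the spread in either group. Hes1, a repressor induced by Notch, was dim and differed by 0.13. Cited2, which competes for the coactivators CBP and p300, was 7.41, 7.52, 6.80 and 7.28 against 7.19, 6.56, 7.22 and 6.33, a difference of 0.43 (adjusted p 0.607). Knockout arrays 1, 2 and 4 lay above every wild-type array, and knockout array 3 lay among them. The clock repressors Per2 and Per1 differed by -0.31 and -0.16. Per2 was 7.12, 7.29, 7.15 and 8.03 against 7.75, 8.08, 7.92 and 7.09, with knockout array 4 and wild-type array 4 on the opposite side to their groups.

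Of the 8 genes caught by stem only, 5 were tested. Maf1, a repressor of RNA polymerase III that shares no family with the Maf factors, was 11.86, 12.35, 11.96 and 12.18 in the knockout and 12.45, 12.48, 12.43 and 12.41 in the wild type. The wild-type arrays spanned 0.07 log2 units, and every knockout array lay below them, knockout array 2 by 0.06. The means were 12.09 ± 0.22 (SD, n = 4) and 12.44 ± 0.03, a difference of -0.35 (SE 0.15, unadjusted p 0.0402, adjusted p 0.518). Ddit4l, an inhibitor of mTORC1 found in muscle, was 8.77, 11.14, 10.31 and 10.37 against 11.10, 9.48, 11.40 and 11.02 and differed by -0.60 with an interval of -1.81 to 0.60. Its difference was -0.15 without knockout array 1, its lowest. Zfp362, Zfp367 and Atf7ip differed by -0.18, 0.02 and -0.02. Btg1c, Mycbp2 and Zfp365 were dim, with differences of 0.02, 0.33 and -0.22.

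Variation within a genotype was large for these genes. The residual SD of the fit had a median of 0.41 over the 41 tested members against 0.30 over all tested probes. It lay above the median of all probes for 33 of the 41 (80.5%) and above the 90th percentile for 10 (24.4%). Junb (1.24), Fos (0.97), Ddit4l (0.93), Klf15 (0.88), Atf4 (0.80), Maff (0.80), Egr1 (0.79), Cebpb (0.73), Per1 (0.73) and Zfp36 (0.72) were those 10. Maf1 (0.16), Dusp16 (0.22), Jun (0.23) and Zfp36l1 (0.24) varied least among the tested members. Large spread was not confined to the members. In the fixed lists read further on, the median residual SD was 0.82 for other immediate early and stress-induced genes. It was 0.52 for SRF, CREB and MEF2 factors and 0.51 for clock genes. The lists of Id partners, MAPK kinases and integrated stress genes had 0.30, 0.29 and 0.27. This compares spreads of log2 values and not levels, and probes of one array share its RNA and hybridisation.

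**Figure D4:**
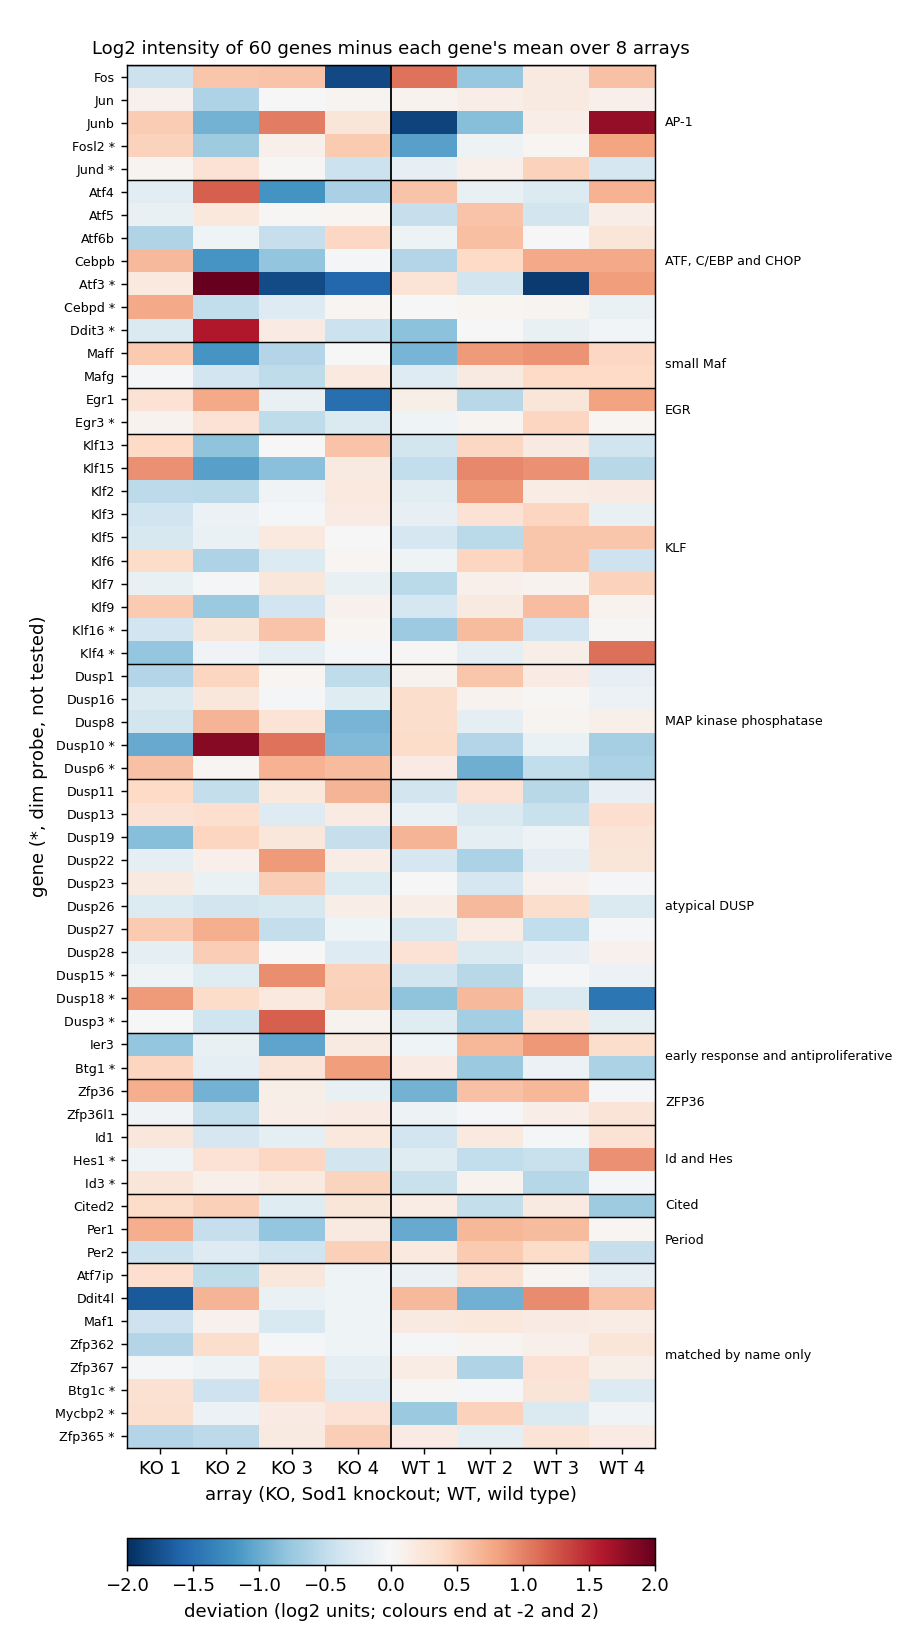
Log2 intensity of the 60 members minus each gene's own mean over the 8 arrays (colour, ending at -2 and 2 log2 units), with arrays in columns and genes in rows grouped by role; an asterisk marks the 19 dim members that were not tested. Atf3 and Ddit3 are high in knockout array 2, and Junb is low in wild-type array 1.

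An order of arrays that crossed the genotypes recurred in Cebpb, Klf6, Klf9, Klf13, Klf15, Maff, Mafg and Per1, genes picked out after their values were seen. In each of these 8 genes knockout arrays 1 and 4 and wild-type arrays 2 and 3 were above knockout arrays 2 and 3 and wild-type array 1. The order was not confined to them. Id1 met it too, and so did the dim Cebpd. Cebpd was 5.39, 4.15, 4.38 and 4.69 in the knockout and 4.63, 4.69, 4.70 and 4.51 in the wild type. Klf15 was 8.77, 6.77, 7.02 and 8.03 in the knockout and 7.37, 8.82, 8.76 and 7.30 in the wild type. Per1, a clock gene that glucocorticoids also induce, was 7.58, 6.39, 6.08 and 7.04 against 5.85, 7.52, 7.49 and 6.89. Klf6 was 10.59, 9.61, 9.95 and 10.27 against 10.14, 10.66, 10.78 and 9.81, and Klf13 was 7.52, 6.31, 7.11 and 7.69 against 6.75, 7.54, 7.30 and 6.72. Wild-type array 4 changed sides, being high for Cebpb, Maff and Mafg and low for Klf6, Klf13 and Klf15. Zfp36 came close to this order, at 8.65, 6.98, 8.04 and 7.77 against 6.97, 8.50, 8.59 and 7.88, with knockout array 3 above knockout array 4. Fos and Ddit4l did not share it: Ddit4l was lowest in knockout array 1 and next in wild-type array 2. Whole profiles moved as well. Over all tested probes, deviations from the group mean correlated at 0.498 between knockout array 4 and wild-type array 2 and at 0.442 between knockout array 2 and wild-type array 1, as a description across probes that share their arrays. The other pairs that stood on the same side in these 8 genes correlated less: knockout array 1 at 0.272 with wild-type array 2 and 0.0896 with wild-type array 3, knockout array 4 at 0.0465 with wild-type array 3, and knockout array 3 at 0.0897 with wild-type array 1. The part of such whole-array differences in the order of these genes was not tested.

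**Figure D5:**
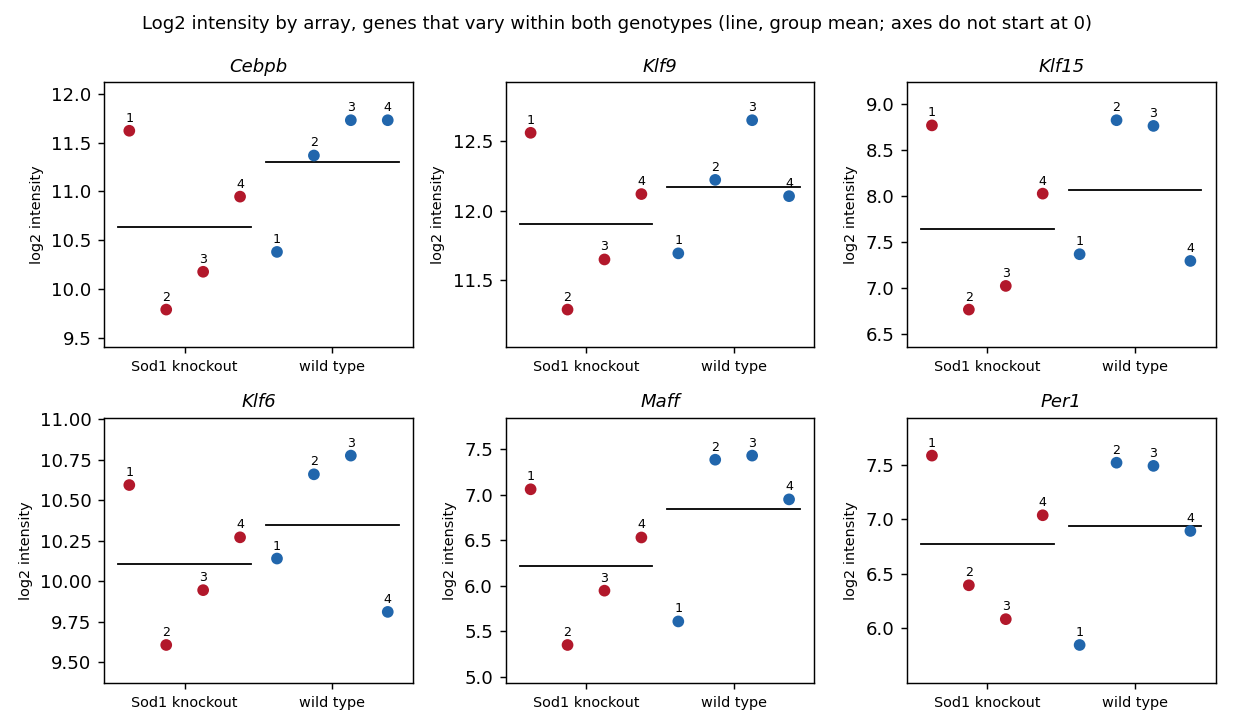
Log2 intensity by array (vertical axis) of Cebpb, Klf9, Klf15, Klf6, Maff and Per1, with 4 Sod1 knockout arrays in red, 4 wild-type arrays in blue, replicate numbers above the points and lines at group means. In all 6 genes knockout arrays 1 and 4 and wild-type arrays 2 and 3 are above knockout arrays 2 and 3 and wild-type array 1.

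Counted over the tested members, wild-type array 3 held the highest value of 10 genes and wild-type array 2 of 8, and knockout array 2 held the lowest of 11 and the highest of 7. As shares of the tested members, knockout array 2 was lowest for 26.8% against 12% of all tested probes, and wild-type array 3 was highest for 24.4% against 9%. Wild-type array 2 was highest for 19.5% of members and for 21% of all tested probes. Without knockout array 2 the members that were lower in the knockout numbered 27 of 41. Of the 41 members 0 passed (smallest adjusted p 0.24, for Maf1), and of all 4698 tested probes 36 passed. That share is too small for 0 of 41 to set the members apart.

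Genes that act before, beside and after these regulators were read from 6 fixed lists, in none of which a gene passed in either direction. Of the MAPK cascade kinases 22 of 38 were measured and 15 tested, 9 higher and 6 lower in the knockout mean, with a median difference of 0.04. The kinase genes of smallest p were Mknk1 (0.40), Map3k1 (0.32), Mapk6 (0.42) and Map3k3 (-0.31), given as log2 differences. SRF, CREB and MEF2 factors and their coactivators had 18 of 30 measured and 11 tested, 9 of them higher, with a median of 0.11. Camk2d, a calcium-dependent kinase, was 7.35, 7.02, 7.29 and 7.71 in the knockout and 5.94, 7.19, 5.64 and 6.00 in the wild type. Wild-type array 2 alone of its group reached the knockout values, and the difference was 1.15 (SE 0.32, unadjusted p 0.00533, adjusted p 0.443). Mef2c, a muscle transcription factor, differed by 0.60, Mef2a by 0.48 and Camk2b by 0.37, while Srf differed by -0.01.

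Other immediate early and stress-induced genes, such as the Gadd45 and Socs families, had 25 of 44 measured and 17 tested, 8 higher and 9 lower, with a median of -0.08 and a median residual SD of 0.82. Gadd45a, a gene of growth arrest that denervation induces in muscle, was 13.19, 8.95, 11.75 and 12.57 in the knockout and 9.39, 11.41, 10.42 and 11.32 in the wild type. Arrays of a genotype differed by more than 2 log2 units, and the difference was 0.98 with an interval of -0.92 to 2.88. Mcl1, Tsc22d3 and Errfi1 differed by -0.20, 0.42 and 0.40. Integrated stress and unfolded protein response genes had 22 of 35 measured and 13 tested, 5 higher and 8 lower, with a median of -0.10. Eif4ebp1, a translation repressor under ATF4, differed by -0.85 (adjusted p 0.575), Hsp90b1, an endoplasmic reticulum chaperone, by -0.31, and the tRNA synthetase genes Aars and Sars by -0.28 and -0.20.

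All 12 measured clock genes other than Per, of 20 listed, were tested, 6 higher and 6 lower with a median of -0.02. Nfil3 and Nr1d1, both repressors in the clock, differed by -0.79 and 0.72 (unadjusted p 0.0348 and 0.0421, adjusted p 0.51 and 0.518). Clock differed by 0.24 and Dbp, an output gene of the clock, by 0.69. The list of partners of Id proteins with BMP and Notch signalling had 16 of 25 measured and 6 tested, 2 higher and 4 lower, with a median of -0.11. Smad4, Smad5, Myf6 and Bmpr1a differed by -0.28, -0.27, 0.45 and -0.16.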

How the data were processed

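Muscle RNA of 4 Sod1 knockout and 4 wild-type samples was made into biotin-labelled cRNA, per the labels' protocols, and hybridised to Illumina arrays. The log2 intensities are the authors' deposited values. All 8 columns hold the same sorted values, from 3.21 to 14.19, so they were quantile normalized before deposit; the log base of 2 was inferred from these limits. How background was handled is not given in the sources used here. Quantile normalization hides a shift of all transcripts. A second table of 8 columns was not used, since its column names match no sample's labels.

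Of 9232 probes, 8403 had 1 gene symbol, 3 several and 826 none, and 8399 matched the GRCm38.p6 gene table by Entrez number. All tested probes entered one limma 3.58.1 model under R 4.3.3 (genotype term, eBayes, two-sided), with Benjamini-Hochberg adjustment over all 4698. Values in every array were given for the 14 members of smallest p, those without overlap and the brightest of each class, and for others as said. Up to 4 genes of smallest p were named per list. The members and lists were chosen with earlier results of these data known. The median standard error was 0.26 for tested members and 0.21 for all tested probes, and precision is limited by having few arrays. The fit was tested on simulated data. Alternatives changed the filter, the moderation, array weights, the normalization, a replicate block, the probe rule and the arrays used. Figures were drawn with matplotlib 3.10.9.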

Additional observations from a re-analysis of the deposited data

Results flagged for a closer look

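In 120 groups of 4 arrays (60 members in 2 genotypes), 2 had an array set far apart from the other 3 by Dixon's test at the 95% level, where chance flags about 1 in 20, or 6. Jun was 7.41 in knockout array 2, with the other knockout arrays between 8.01 and 8.11. Ddit3 was 5.47 in wild-type array 1, with the other wild-type arrays between 6.14 and 6.28. No explanation of either value was tested.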

How the results depend on the processing

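No member passed the threshold under any alternative, and the smallest adjusted p of a member was 0.0998, for Dusp11 without both replicates numbered 2, an alternative added after seeing the data. The count over all probes, 0 as reported, was 4 with array weights, ran from 0 to 36 with each array left out in turn (36 without knockout replicate 2), and was 59 without both replicates numbered 2. With no filter the median difference of the members was -0.087, against -0.019 over all probes, and 26 members had the higher mean in the knockout. With the stricter filter the members' median was -0.283, against -0.03 over all probes, and 5 members had the higher mean. Both moves follow from which members are bright enough to be tested. Of the 20 named tested members, 12 of the 14 run under all 17 alternatives kept their sign, as did 5 of the 6 that the stricter filter left out and that were run under 16. Over all 41 tested members 24 kept their sign and 17 turned in at least 1 alternative, among them Per1 (-0.525 to 0.158), Zfp36 (-0.467 to 0.335), Dusp8 (-0.504 to 0.116), Klf15 (-0.789 to 0.131), Junb (-0.143 to 1.06), Klf5, Klf6, Klf7, Klf13 and Atf5. Id1 turned to 0.052 with array weights, 0.124 without both replicates numbered 2, and ran from -0.175 to 0.065 with each array left out. Egr1 ran from -0.607 to 0.148 and Zfp36l1 from -0.206 to 0.014 with each array left out. The cause of these turns was not tested. The labels state no pairing of same-numbered arrays, whose deviations correlated at -0.279, -0.154, 0.243 and -0.34. These values cannot show whether such arrays were processed together. With the replicate block 0 probes and 0 members passed, and the median difference of the members was -0.178. The non-normalized table, background correction and a slide block were not run, because columns match no sample and no slide is named. Weak signal limits the 19 dim members: 12 lay below the array median in every array and 7 were above it in 1 to 3 arrays, Atf3 reaching 10.46 in knockout array 2.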

Other observations

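Some genes of the fixed lists that are not members varied between arrays of a genotype in a similar way and were chosen after their values were seen. Nr1d2, a clock repressor, was 10.05, 7.10, 7.73 and 9.28 in knockout arrays 1 to 4 and 7.67, 8.76, 9.71 and 7.66 in wild-type arrays 1 to 4. Pim3, a kinase gene of the early response, was 11.26, 9.18, 9.91 and 10.90 against 9.86, 11.09, 11.03 and 10.04. Both had knockout arrays 1 and 4 and wild-type arrays 2 and 3 as the highest. Chac1, an ATF4 target that degrades glutathione, was 12.28, 7.40, 10.66 and 12.09 against 10.64, 10.75, 12.15 and 11.27, lowest in knockout array 2, where Atf3, Atf4 and Ddit3 were highest. Hmox1, the heme oxygenase, was 8.65, 6.67, 6.56 and 9.32 against 7.16, 10.71, 7.52 and 8.29, and Mt2, a metallothionein, was 10.09, 6.97, 6.87 and 10.46 against 7.52, 11.72, 7.06 and 9.73. For both, wild-type array 2 was the highest, followed by knockout arrays 4 and 1 and then wild-type array 4. None of these 5 genes passed the test.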
